A study of Mus musculus with 6 samples.

Results

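Schwann cell and myelin genes were examined in the dorsal skin of mouse embryos taken at e18.5. The 8 genes are Mbp, Pmp22, Sox10, S100b, Egfl8, Ngfr, Gap43 and Cdh19, and every row of the deposited array table annotated with one of these symbols was taken, which gave 20 probe sets of 45037 that are not controls. A probe set is a group of short oligonucleotides that reads one transcript, and a gene can have several. The groups were 3 Get1 +/+ mice and 3 Get1 -/- mice, with 1 array per mouse and the same region of back skin from each. Get1 is the earlier name of Grhl3, a grainyhead-like transcription factor of surface epithelia. The labels give no strain, do not describe the deleted allele, and name neither a Cre nor a transgene.

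Schwann cells are the glia of peripheral nerve. They arise from the neural crest under the transcription factor Sox10, travel along growing axons, and either wrap an axon in compact myelin or ensheathe small axons without myelin. In skin the nerve bundles run through the dermis, so these transcripts are a small part of the RNA of whole skin, and several of the genes are also used by other cells: Sox10 and S100b by melanocytes, Pmp22 by fibroblasts, Mbp in its Golli form by immune cells. In bulk tissue fewer Schwann cells and less RNA per Schwann cell cannot be told apart.

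The product of Get1 is a DNA-binding factor and Sox10 is one of the genes studied, so promoters were searched for the letters each family is known to bind. The windows searched, credited to RefSeq on build GRCm38.p6, were 7 of 300 bases each (250 before to 50 after the start). They cover 4 of the 8 genes, namely S100b, Ngfr, Egfl8 and, with 4 starts, Pmp22. Windows on the chromosome of Mbp were left out of this search, but not of the shares over all windows. The grainyhead letters AACCGGTT, which read the same on both strands, occurred in 0 of the 7 windows and in 0.146% of all 32851 windows. The Sox core letters ACAAAG, searched on both strands, occurred in 1 of the 7 and in 18.7% of all windows. The 1 window is that of Egfl8 at chr17:34615922-34616221 on the minus strand, shown because it alone of the 7 carries either motif. The capitals mark the Sox core, read here on its other strand, which begins 111 bases before the start.
Egfl8: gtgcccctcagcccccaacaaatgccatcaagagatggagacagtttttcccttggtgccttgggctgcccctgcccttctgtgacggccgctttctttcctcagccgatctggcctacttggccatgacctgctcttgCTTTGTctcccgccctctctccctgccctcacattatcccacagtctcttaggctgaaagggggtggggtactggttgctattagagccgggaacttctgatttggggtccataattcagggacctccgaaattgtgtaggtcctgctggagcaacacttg
A match of letters is no evidence of binding, and a window without them says nothing about sites elsewhere.

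The array values are MAS5 signals in arbitrary units, already scaled so that the 2% trimmed mean is 500 on every array. The kept probe sets of the arrays correlated with one another at 0.916 to 0.971. The arrays did not group by genotype. Get1 +/+ replicate 1 correlated at 0.955, 0.959 and 0.971 with the Get1 -/- arrays and at 0.943 and 0.940 with the other Get1 +/+ arrays. The Grhl3 probe set read 246, 413 and 380 in the Get1 -/- arrays and 478, 934 and 670 in the Get1 +/+ arrays. Keratinocyte markers were abundant on all arrays: all 9 measured of 10 listed, among them Krt5 and Krt14, read 1481 or more. All 9 were lower on average in Get1 -/- skin, with a median log2 change of -0.15, and 0 passed. With 3 arrays per genotype the precision is limited by their number. A further limit is that 3 arrays (Get1 +/+ replicates 1 and 2 and Get1 -/- replicate 1) had a higher signal of the beta-actin control (30902 to 31441) than the others (22558 to 26889), so this split follows genotype in part. The labels do not say whether the mice of a genotype came from separate litters. The p-values set the difference between genotypes against the spread among these mice within a genotype, which may not cover the spread between litters.

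No probe set of these genes changed past the threshold. Genotypes were compared with limma, and the threshold was a Benjamini-Hochberg adjusted p under 0.05 over the 22519 probe sets whose geometric mean signal lay at or above the median, 137. Of the 20 probe sets 12 passed this filter, covering 6 genes. S100b and Cdh19 had none that passed, so these 2 genes were described and not tested. Among the 12, 0 passed at the adjusted p (smallest 0.737) and 0 at an unadjusted p under 0.05 (smallest 0.0607), where 0.0266% of all tested probe sets passed at the adjusted p and 6.72% at the unadjusted p. A fit of all 45037 probe sets with no filter also called 0 of the 20, again with 0 at an unadjusted p under 0.05. In that fit 0.0155% of all probe sets were called and 5.86% had an unadjusted p under 0.05. With the replicate number as a block, 35 of the 22519 probe sets passed instead of 6, and 0 of the 12 were among them.

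Sox10, the factor that specifies and maintains the Schwann lineage, gave readings that differed among its 3 probe sets. Probe set 1451689_a_at read 241, 242 and 494 in the Get1 +/+ arrays and 312, 309 and 437 in the Get1 -/- arrays. The highest array was Get1 +/+ replicate 3 and the groups overlapped, with means of 326 ± 146 (SD, n = 3) and 353 ± 73.1 (n = 3) and a log2 change of 0.18 ± 0.31 (SE). Probe set 1424985_a_at read 177, 218 and 221 against 165, 208 and 187, and its log2 change of -0.14 ± 0.23 had the opposite sign. The third probe set, 1425369_a_at, lay under the filter and ranged from 34.3 to 117. Melanocytes also use Sox10. The 11 measured of 15 melanocyte genes averaged highest in Get1 +/+ replicate 3, at 0.34 above their 6-array mean on the log2 scale. They averaged lowest in Get1 -/- replicate 3, at -0.21, where Sox10 1451689_a_at read 437. Their summed signal ran from 12062 to 17385 in Get1 +/+ and from 11443 to 13261 in Get1 -/- arrays, with 3 genes higher and 8 lower in Get1 -/- skin and no marker at 0. The part of melanocytes in the Sox10 signal was not tested.

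Mbp encodes myelin basic protein, which holds together the cytoplasmic faces of the myelin membrane. It has 8 probe sets, of which 6 passed the filter. Probe set 1433532_a_at, with the highest mean of them, read 590, 473 and 459 in Get1 +/+ and 609, 604 and 851 in Get1 -/- arrays. All 3 Get1 -/- values lay above all 3 Get1 +/+ values, although Get1 +/+ replicate 1 came within a few percent of the lowest of them. Its log2 change was 0.43 ± 0.20 (SE), with a 95% interval of -0.04 to 0.90 and an adjusted p of 0.738 (limma). Without Get1 -/- replicate 3 the change was 0.27. Probe set 1456228_x_at read 267, 184 and 156 against 249, 320 and 309, where Get1 -/- replicate 1 fell below Get1 +/+ replicate 1, and changed by 0.56 ± 0.26. A name ending in _x_at or _s_at marks a probe set whose oligonucleotides can match other transcripts too.

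The other 4 tested Mbp probe sets had smaller changes and overlapping groups. Probe set 1419646_a_at read 437, 315 and 433 against 552, 315 and 420, a log2 change of 0.10 ± 0.25, and the groups covered one another. Probe set 1425264_s_at read 300, 290 and 436 against 303, 338 and 342, a change of -0.04 ± 0.22. Probe set 1451961_a_at changed by 0.05 ± 0.28 and 1436201_x_at by 0.27 ± 0.31, both with overlapping groups. Across the 6 arrays the 15 pairs of these 6 probe sets correlated at between -0.39 and 0.84 with a median of 0.07, so they did not follow one pattern. Under the filter, 1454651_x_at read 51.3, 83.9 and 85.3 against 114, 91.7 and 132, with no overlap. The difference of its mean log2 values was 0.64, or 0.40 without Get1 +/+ replicate 1. Also under the filter, 1425263_a_at read 50.7, 147 and 97.7 against 83.0, 66.3 and 42.0. Its values were lower in Get1 -/- skin on average, with a difference of -0.55. Macrophages and lymphoid cells also transcribe the Mbp gene. Of 19 listed genes of those cells 15 were measured and 12 were higher in Get1 -/- skin, with a summed signal of 15070 to 19147 in Get1 +/+ and 20799 to 23323 in Get1 -/- arrays. None of these markers read 0, and their part in the Mbp signal was not tested.

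Pmp22 encodes a membrane protein of compact peripheral myelin whose gene dosage matters in inherited neuropathy, and it is also made by growth-arrested fibroblasts. Its only probe set read 6625, 6469 and 6323 in Get1 +/+ and 6276, 5905 and 7383 in Get1 -/- arrays. The Get1 -/- arrays held both the highest and the lowest value, and the means of 6472 ± 151 (SD, n = 3) and 6521 ± 769 (n = 3) lay closer together than the arrays of either genotype. The log2 change of 0.0047 had a 95% interval of -0.28 to 0.29, the narrowest of the 12. Dermal fibroblast and papilla genes had a median log2 change of -0.02 over 17 measured of 20.

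**Figure D1:**
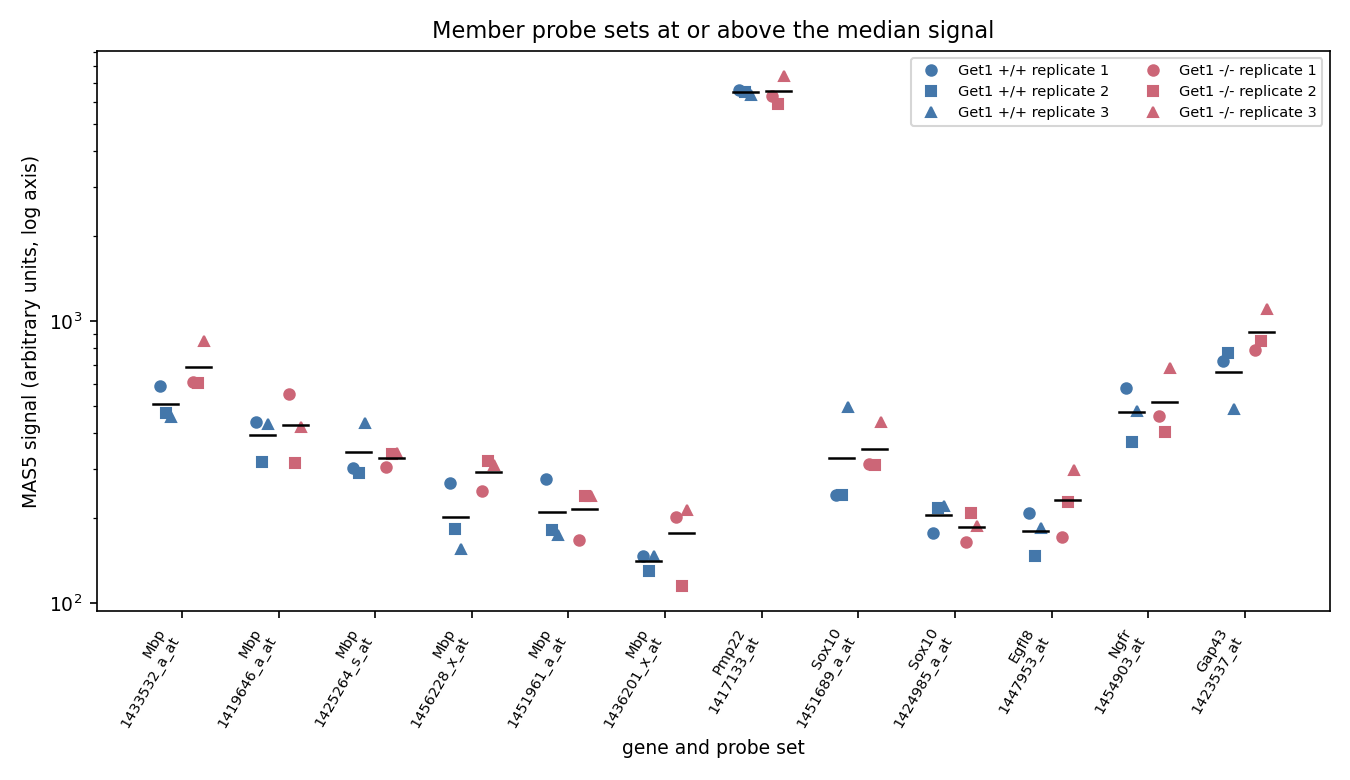
MAS5 signal (arbitrary units, log axis) of the 12 probe sets that passed the filter, one point per array with Get1 +/+ in blue and Get1 -/- in red, and a black bar at each group mean (n = 3). Genotypes are separate only for Mbp 1433532_a_at and Gap43, where the lowest Get1 -/- values are 604 and 791 and the highest Get1 +/+ values 590 and 771.

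Ngfr, the low-affinity neurotrophin receptor of immature and non-myelinating Schwann cells, has 3 probe sets. The one that passed the filter, 1454903_at, read 578, 373 and 481 in Get1 +/+ and 460, 403 and 680 in Get1 -/- arrays. The values overlapped throughout, with a log2 change of 0.09 ± 0.25 (SE). Under the filter, 1450177_at read 127, 76.4 and 77.9 against 109, 138 and 278, where the Get1 -/- mean rests largely on replicate 3. The difference of its mean log2 values was 0.82. Probe set 1421241_at read between 3.98 and 52.5, with a difference of -0.13. Ngfr is known in skin also from cells around the hair follicle, which these arrays do not separate from nerve.

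Cdh19, a cadherin of Schwann cell precursors, has 1 probe set, under the filter. It read 76.7, 82.2 and 39.7 in Get1 +/+ and 70.2, 137 and 99.9 in Get1 -/- arrays. The groups overlapped, and the difference of the mean log2 values was 0.65, or 0.31 without Get1 +/+ replicate 3.

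Gap43, the growth-associated protein of extending axons that Schwann cells also make before they myelinate, was, beside Mbp, the tested gene with a probe set whose genotypes did not overlap. Its only probe set read 723, 771 and 489 in Get1 +/+ and 791, 849 and 1104 in Get1 -/- arrays. All Get1 -/- values lay above all Get1 +/+ values, but by little between the highest Get1 +/+ and the lowest Get1 -/- array. The means were 661 ± 151 (SD, n = 3) and 915 ± 167 (n = 3), the log2 change 0.48 ± 0.23 (SE), its 95% interval -0.03 to 0.99 and its adjusted p 0.737 (limma). The size rested on single arrays, being 0.28 without Get1 +/+ replicate 3 and 0.34 without Get1 -/- replicate 3. Within the 3 arrays of higher actin signal Get1 -/- exceeded Get1 +/+ by 0.08 on the log2 scale, and on the other 3 by 0.99, each with a single array for one genotype. Fitted with that split as a block, the log2 change was 0.53 (adjusted p = 0.562, limma).

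Egfl8, which encodes a secreted protein with EGF-like domains and whose promoter is printed above, read 209, 147 and 185 in Get1 +/+ and 171, 229 and 295 in Get1 -/- arrays. The groups overlapped through Get1 -/- replicate 1, and the log2 change was 0.34 ± 0.28 (SE). It was 0.15 without Get1 -/- replicate 3 and 0.20 without Get1 +/+ replicate 2. S100b, the calcium-binding protein used as a marker of Schwann cells and melanocytes, has a pair of probe sets, both under the filter, that disagreed in sign. Probe set 1419383_at read 147, 113 and 80.5 against 65.6, 111 and 130. Probe set 1434342_at read 24.7, 56.7 and 87.4 against 74.6, 127 and 138. The former was higher on average in Get1 +/+ and the latter in Get1 -/- skin, and both groups overlapped in each. The differences of their mean log2 values were unlike in size, at -0.17 and 1.14.

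How far the low readings stand above background was gauged from 77 probe sets of odorant and vomeronasal receptor genes, which skin is not known to use in bulk. Their geometric mean signals had a median of 17.4 and a 95th percentile of 57.8. By geometric mean 18 of the 20 probe sets lay above that percentile, and Sox10 1425369_a_at and Ngfr 1421241_at did not. Of these 18, 4 also had single arrays below it, namely S100b 1434342_at (24.7 and 56.7), Cdh19 (39.7), Mbp 1454651_x_at (51.3) and Mbp 1425263_a_at (50.7 and 42.0). Oligonucleotides differ in how strongly they bind, so this comparison is only a rough guide to what was measured.

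**Figure D2:**
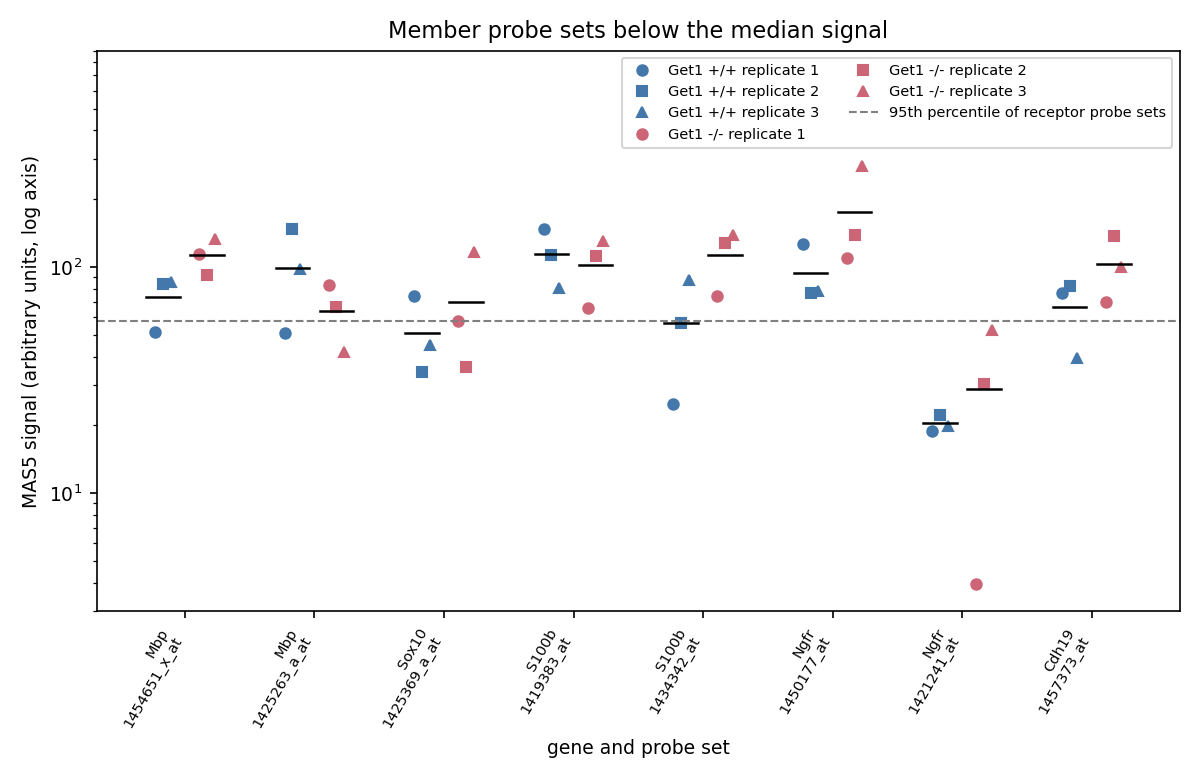
MAS5 signal (arbitrary units, log axis) of the 8 probe sets under the filter, one point per array, with bars at the group means (n = 3) and a dashed line at 57.8, the 95th percentile of 77 receptor probe sets. The genotypes are separate for Mbp 1454651_x_at and overlap for the other probe sets.

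As a group the 12 tested probe sets were higher in Get1 -/- skin in 10 and lower in 2, with a median log2 change of 0.14, where 50.2% of all 22519 probe sets were higher and their median change was 0.0015. Several of the 12 read the same gene, so they are not independent. Over 1 probe set per gene, that with the highest mean, all 6 genes were higher with a median of 0.26, while over the 11387 genes measured in this way 51.3% were higher with a median of 0.0076. Genotypes did not overlap for 2 of the 12 probe sets (16.7%), against 11.1% of all tested. They did not overlap for 3 of all 20 (15.0%), against 10.8% of all probe sets with no filter. These shares lie near the background. Over 1 probe set per gene the genotypes did not overlap for 2 of the 6 genes (33.3%), against 12% of all genes measured. That share rests on 2 genes alone, Mbp and Gap43. The 95% intervals of the 12 reached from -0.67 to 1.16. The largest upper bound belonged to Mbp 1456228_x_at and the lowest lower bound to Sox10 1424985_a_at.

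**Figure D3:**
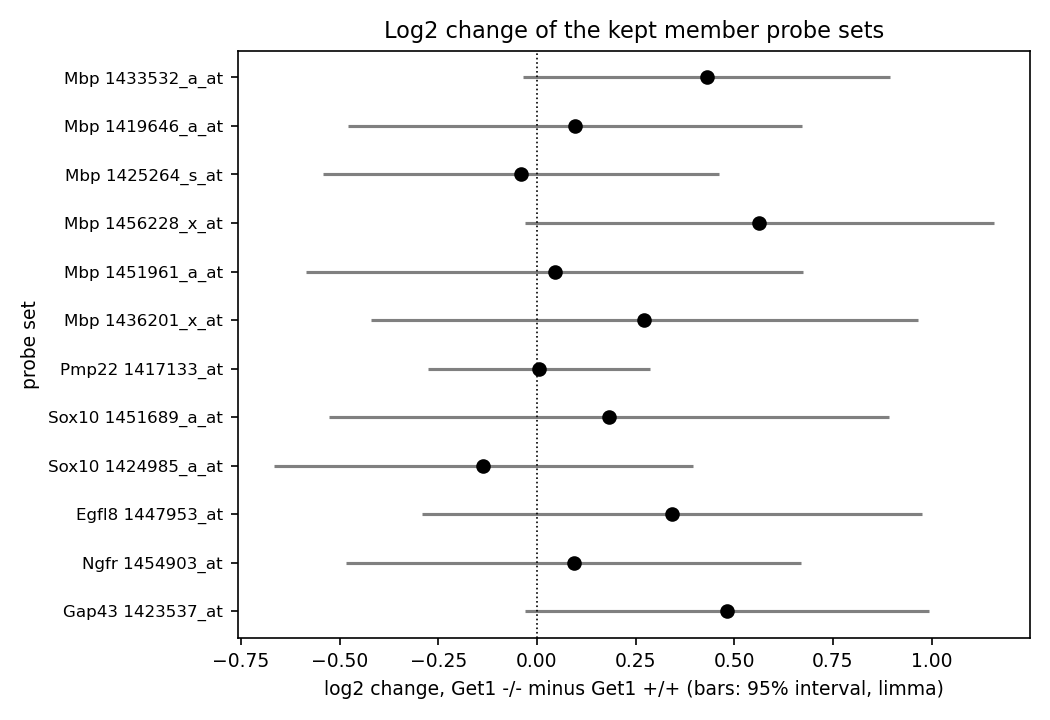
Log2 change (Get1 -/- minus Get1 +/+) of the 12 tested probe sets as points, with 95% intervals from limma as bars (n = 3 arrays per genotype). Every interval crosses 0, with points from -0.14 for Sox10 1424985_a_at to 0.56 for Mbp 1456228_x_at.

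For the median of the 12 probe sets, the lean rested largely on a pair of arrays, Get1 -/- replicate 3 and Get1 +/+ replicate 2. Get1 -/- replicate 3 was the highest array for 6 of the 12 probe sets, where it was the highest for 13.3% of all tested probe sets, and it was the lowest for 0 of the 12. Averaged over 1 probe set for each of the 6 genes, it stood 0.45 above the 6-array mean on the log2 scale. The Get1 +/+ arrays stood at -0.03, -0.26 and -0.10. Of the other Get1 -/- arrays, replicate 1 at -0.05 lay within that range and replicate 2 at -0.02 just above it. The median log2 change of the 12 was 0.06 without Get1 -/- replicate 3 and 0.0087 without Get1 +/+ replicate 2, the array with the lowest average. It was larger without Get1 +/+ replicate 1 (0.25) or 3 (0.22) and without Get1 -/- replicate 2 (0.29).

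Among the tissue marker lists, skeletal muscle and endothelial genes had the same highest and lowest arrays as the 6 genes. Adipocyte, dermal fibroblast and macrophage genes did not. The 8 measured axon and sensory neuron genes, described below and without any neurofilament gene, shared these arrays too. They averaged 0.29 in Get1 -/- replicate 3 and -0.24 in Get1 +/+ replicate 2. The 15 skeletal muscle genes, all measured, averaged 0.55 above their mean in Get1 -/- replicate 3 and -0.77 in Get1 +/+ replicate 2. All 15 were higher in Get1 -/- skin with a median of 0.41, and 0 passed. Without Get1 +/+ replicate 2 that median was 0.097, without Get1 -/- replicate 3 it was 0.21 and without Get1 +/+ replicate 1 it was 0.77. Their summed signal ran from 104676 to 169130 in Get1 +/+ and from 131402 to 197858 in Get1 -/- arrays, with no marker at 0. The 10 endothelial genes also stood highest in Get1 -/- replicate 3 (0.26) and lowest in Get1 +/+ replicate 2 (-0.17), with summed signals of 7676 to 8019 and 8309 to 10034. Adipocyte genes stood highest in Get1 -/- replicate 2 (0.34) and lowest in Get1 +/+ replicate 1 (-0.33). Dermal fibroblast genes stood highest in Get1 -/- replicate 3 (0.13) but lowest in Get1 +/+ replicate 3 (-0.10), and macrophage and lymphoid genes lowest in Get1 +/+ replicate 2 (-0.25) but highest in Get1 -/- replicate 1 (0.27). The part of muscle, vessel and axon content in the Schwann gene values was not tested.

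**Figure D4:**
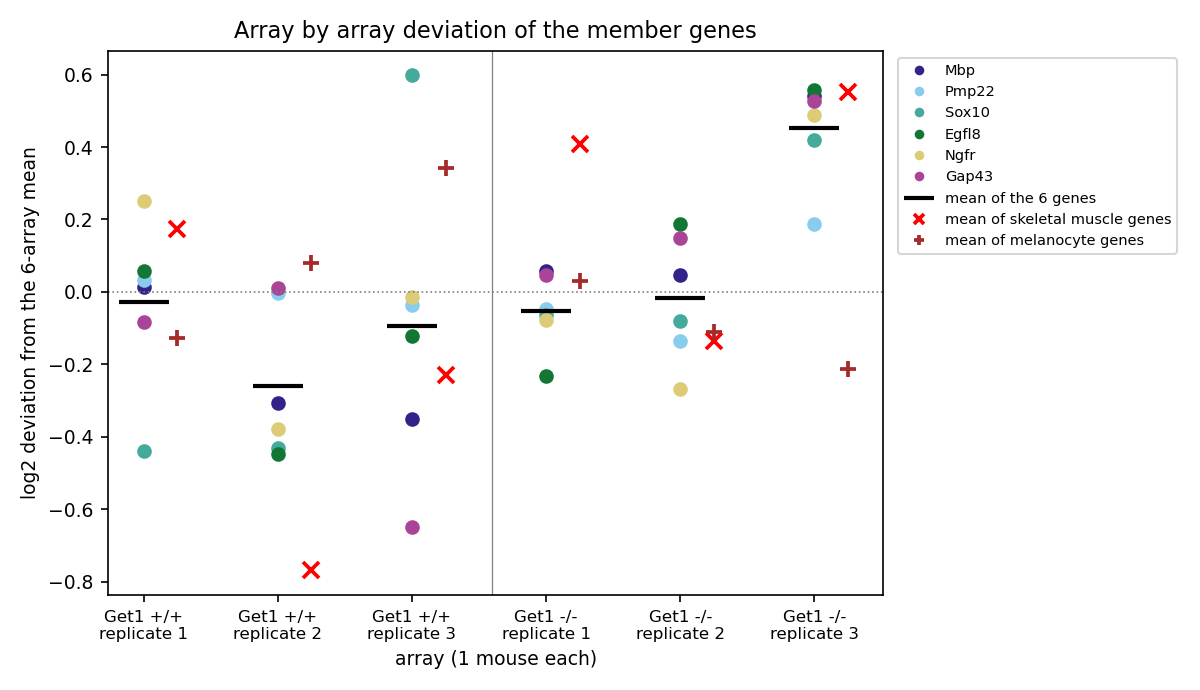
Log2 deviation from the 6-array mean for each of the 6 genes (circles, 1 probe set per gene) and their average (black bar) on each array, with the averages of skeletal muscle genes (crosses) and melanocyte genes (plus signs). Get1 -/- replicate 3 holds the highest average of the genes (0.45) and of muscle (0.55), and Get1 +/+ replicate 2 the lowest of both (-0.26 and -0.77).

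The 6 genes did not all keep to one pattern. Against the average of the remaining 5, the correlation over the 6 arrays was 0.87 for Mbp (1433532_a_at), 0.87 for Egfl8, 0.74 for Ngfr, 0.69 for Pmp22, 0.45 for Gap43 and 0.24 for Sox10. Sox10 was set apart by Get1 +/+ replicate 3, where it stood 0.60 above its mean while Gap43 stood at -0.65. Among 11381 genes outside the group, those closest to the average pattern were Cotl1 (correlation 0.99), Adamts7 (0.99), Hmga2 (0.98), P2ry6 (0.98), Bend3 (0.97) and Carns1 (0.97). Of the 11381 genes 14 exceeded 0.95. Without Get1 -/- replicate 3 the values of these 6 ran from 0.828 to 0.996.

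Other genes of the Schwann lineage were read from fixed lists, and 0 of them passed. Of 25 genes of compact myelin and its upkeep 12 were measured, 4 higher and 8 lower in Get1 -/- skin, with a median of -0.05. The smallest p belonged to the tetraspanin Cd9, which read 5847, 8119 and 8494 against 4329, 5932 and 4925, a log2 change of -0.56 ± 0.18 (SE, adjusted p = 0.737, limma). Cd9 is also abundant in epidermis. The next were Fig4 (-0.26 ± 0.19), Mpp6 (0.28 ± 0.24) and the fatty acid hydroxylase Fa2h (-0.24 ± 0.30). Mag, the myelin-associated glycoprotein, lay under the filter with readings of 49.9 to 113. Of these 25 genes 5 had no probe set under their listed symbol and were not analysed here.

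Of 19 transcription factors of the lineage 17 were measured, 8 higher and 9 lower, with a median of -0.0034 that was -0.21 without Get1 +/+ replicate 1. Egr2, the zinc finger factor that switches on myelin genes, read 253, 815 and 608 in Get1 +/+ and 147, 217 and 262 in Get1 -/- arrays in probe set 1427683_at. Only Get1 -/- replicate 3 reached above the lowest Get1 +/+ array. Its log2 change was -1.30 ± 0.42 (SE, adjusted p = 0.737, limma), and -0.95 without Get1 +/+ replicate 2. The second Egr2 probe set, 1427682_a_at, read 224, 638 and 704 against 249, 167 and 142, a change of -1.36 ± 0.43. The immediate early gene Egr1 (-1.33 ± 0.55) and Egr3 (-0.60 ± 0.22) were lower too. Get1 +/+ replicate 2 was the highest array for Egr1 as for Egr2 in 1427683_at. For Egr3, and for Egr2 in 1427682_a_at, the highest array was Get1 +/+ replicate 3. The part of an immediate early response in the Egr2 values was not tested. Id4, an inhibitor of differentiation, read 1994, 2450 and 2267 against 1459, 1723 and 1553 with no overlap, a change of -0.50 ± 0.15. It alone of the 17 (5.88%) had no overlap, against 12% of all genes measured. Foxd3, of the early neural crest, lay under the filter at 93.0 to 154.

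Of 38 surface and signalling genes of Schwann cells 30 were measured, 21 higher and 9 lower, with a median of 0.12. Erbb3, the neuregulin receptor through which axons keep Schwann cells alive, read 2824, 2724 and 3384 against 2424, 2764 and 2559 in its kept probe set, a change of -0.20 ± 0.14 with overlapping groups. Erbb3 is also made by keratinocytes. The smallest p were those of Itgb8 (0.68 ± 0.32), the matrix protein periostin Postn (0.46 ± 0.22), Moxd1 (-0.31 ± 0.15) and the endoneurial and vascular laminin chain Lama4 (0.25 ± 0.14). Postn changed by 0.17 without Get1 +/+ replicate 3, and Itgb8 by 0.44 without Get1 -/- replicate 2. Lama4 read 2387, 2397 and 2404 in Get1 +/+ and 2772, 2535 and 3291 in Get1 -/- arrays, without overlap. It was highest in Get1 -/- replicate 3, without which its change was 0.15. Moxd1 did not overlap either, with the lower values in Get1 -/- skin. These were 2 of the 30 genes (6.67%), against 12% of all genes measured.

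Axons bring little messenger RNA into skin, since their cell bodies lie in ganglia. Of 30 axon and sensory neuron genes 8 were measured. The neurofilament genes of this list lay under the filter and are not among the 8. They split into 4 higher and 4 lower, with a median of 0.02, and the smallest p were those of Isl1 (0.61 ± 0.38), the tachykinin gene Tac1 (0.49 ± 0.33), Map1b (0.41 ± 0.32) and Stmn2 (-0.26 ± 0.21). Without Get1 +/+ replicate 2 the change was 0.18 for Isl1 and 0.19 for Tac1, and without Get1 +/+ replicate 3 it was 0.11 for Map1b and -0.080 for Stmn2. Of 25 neurotrophic factors and guidance cues 20 were measured, 9 higher and 11 lower, with a median of -0.02. The guidance cue Sema3c read 2726, 1396 and 1099 against 2572, 3349 and 3609, a log2 change of 0.96 ± 0.31 (SE, adjusted p = 0.737, limma), and the groups overlapped through Get1 +/+ replicate 1. The neurotrophin Ntf5 (-0.57 ± 0.26), Sema3f (-0.32 ± 0.17) and the Slit receptor Robo2 (0.40 ± 0.22) followed. Sema3f alone of the 20 (5%) had no overlap, with the lower values in Get1 -/- skin, against 12% of all genes measured. Of 10 Merkel cell genes 3 were measured, 1 higher and 2 lower.

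**Figure D5:**
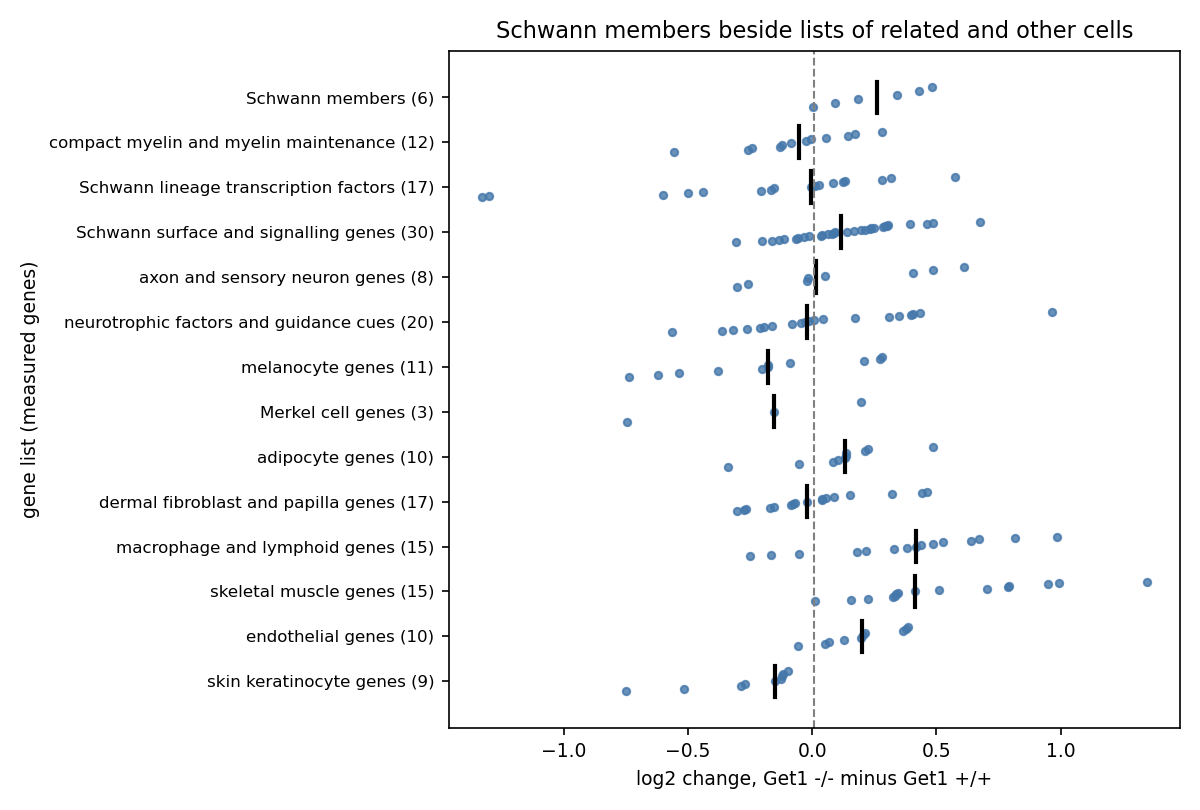
Log2 change (Get1 -/- minus Get1 +/+) of each measured gene as a point, grouped by list with the number measured in brackets, with a black bar at each list's median and a dashed line at the median of all genes. The Schwann members lie at 0 or above with a median of 0.26, myelin genes centre on -0.05 and skeletal muscle genes on 0.41.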

How the data were processed

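The authors deposited linear signal intensities of 6 arrays, 1 per mouse, made with MAS5 per the submitters' processing notes, with no version given. The genome build is not given in the sources used here. RNA was purified with TRIzol, then on spin columns, and hybridised as biotin-labelled cRNA per the labels' protocols. Here values were turned into log2 with no further scaling, 64 control probe sets were left out, and 22519 of 45037 were kept at or above the median of the mean log2 value. The genotype difference was fitted in limma 3.58.1 (R 4.3.3) with lmFit and a trended eBayes, tests were two-sided, the Benjamini-Hochberg adjustment covered every tested probe set, and the code was tested on simulated data. Standard errors and intervals are those of this model. Probe sets are named by GEO's platform annotation, and all 8 Entrez identifiers matched the RefSeq gene table.

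The genes and lists were chosen with earlier results of these data known. The genes named are all members, up to 4 genes with the smallest p per list of nerve or Schwann genes, Mag, Egr2, Erbb3 and Foxd3, and the 6 genes closest to the average pattern. The other two defining genes of the rule were not analysed here. Gpr126, Emr1 and Si are older names of Adgrg6, Adgre1 and Pmel, and count as listed genes with no probe set.

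Both genotypes carry replicate numbers 1 to 3 in the labels, without naming a shared litter or day. Deviations of same-numbered mice correlated at 0.133, 0.26 and 0.14 over the kept probe sets, and at -0.02, 0.36 and -0.03 over 1 probe set per gene, so the pairing is uncertain. The fit with the replicate block is an alternative.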

Additional observations from a re-analysis of the deposited data

How the results depend on the processing

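No tested probe set of these genes passed the threshold under any of the 16 alternatives run. S100b and Cdh19 were tested in the fit with no filter alone, and the stricter filter and the choice of 1 probe set per gene tested fewer of the 12. The alternatives were median centring, quantile normalization, a stricter filter, no filter, no trend, an offset before log2, array weights, the replicate block, the actin control block, 1 probe set per gene and each array left out in turn. Over all probe sets the count past the threshold was 13 with median centring, 35 with the replicate block and 4 to 25 when single arrays were left out, where 25 was the count without Get1 +/+ replicate 1. The replicate block changed no call of these genes. The median log2 change of the tested probe sets was 0.36 with array weights and 0.0087 to 0.29 without single arrays. Medians of the gene lists moved as well: that of compact myelin was 0.039 with array weights and 0.021 without Get1 +/+ replicate 3 or Get1 -/- replicate 2, that of lineage transcription factors ranged from -0.21 to 0.065 and that of axon genes from -0.097 to 0.25 without single arrays. Small changes turned their sign and none of these was a call. Mbp 1425264_s_at changed by 0.031 with array weights and by -0.15 to 0.15 without single arrays, and Sox10 1451689_a_at by -0.029 with the actin control block. Without single arrays Mbp 1419646_a_at ranged from -0.10 to 0.30, Mbp 1451961_a_at from -0.074 to 0.26, Ngfr 1454903_at from -0.13 to 0.25 and Pmp22 from -0.088 to 0.073. Apart from the arrays left out, the cause of these shifts was not tested. The correlations with the average pattern were recomputed as an alternative chosen after seeing the data. With 3 arrays per genotype, and low signals for part of the probe sets, changes anywhere inside the intervals given remain compatible with the data.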
